A study of Mus musculus with 2 samples.

Results

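The nuclear genes of oxidative phosphorylation were followed through the cell types of the mouse arcuate nucleus and median eminence, the base of the hypothalamus, in mice without the homeobox transcription factor Irx5 and in wild-type mice. They were taken by name from the deposited merged expression table: every gene whose name begins with Nduf, Sdha, Sdhb, Sdhc, Sdhd, Uqcr, Cox4i, Cox5, Cox6, Cox7, Cox8 or Atp5, less the 7 names that end in -ps with or without a number. This gave 97 of 26840 genes, of which 36 encode subunits of complex I, 4 of complex II, 8 of complex III, 18 of complex IV and 15 of complex V. The other 16 are assembly factors (Ndufaf1 to Ndufaf8 and Sdhaf1 to Sdhaf4) and the relatives Atp5s, Atp5sl, Cox7a2l and Ndufa4l2. Names alone decided membership.

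Oxidative phosphorylation makes most of the ATP of neurons. Complexes I and II pass electrons of NADH and succinate to ubiquinone, complex III passes them to cytochrome c, complex IV passes them to oxygen, and complex V (ATP synthase) uses the proton gradient that complexes I, III and IV build. Most subunits come from nuclear genes and are imported into mitochondria, while a few catalytic ones are encoded by mitochondrial DNA. All of complex II is encoded in the nucleus. Several complex IV and ATP synthase subunits have more than 1 nuclear gene, with tissue-restricted isoforms such as Cox6a2 of muscle and Cox4i2 of lung and vascular mural cells.

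The Irx5KO library came from 1 pool of 6 Irx5-/- mice and the WT library from 1 pool of 7 wild-type mice. All were of the CD-1 strain and 7 to 8 weeks old. The microdissected tissue was dissociated, live cells were sorted, and transcripts were counted at their 3′ ends by Drop-seq, a droplet method in which unique molecular identifiers (UMIs) mark single captured transcripts. A constitutive loss of Irx5 and pooled animals limit what the pair of libraries can show, since no value here has a replicate check and animals, genotype and library cannot be told apart.

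After filtering, the Irx5KO library held 1949 cells with 4915775 UMIs (587 to 14342 per cell, median 1692) and the WT library 1841 cells with 3960089 UMIs (587 to 17968, median 1621). Irx5 itself had 0 UMIs in Irx5KO cells and 13 in WT cells. The libraries shared 1 barcode sequence. Cells fell into 13 classes, named by the scores of marker lists, for example neuron-like (a list with Snap25 and Syt1), tanycyte-like (Rax and Crym), oligodendrocyte-like, oligodendrocyte precursor (OPC)-like, vascular leptomeningeal cell (VLMC)-like, microglia-like and mural-like. Genotypes were compared in the 6 classes that reached 50 cells in the Irx5KO and in the WT library, and a gene was measured in a class where the libraries together held 50 UMIs of it or more. Levels are UMIs per 1000000 UMIs of the class in that library (CPM), a measure of transcript number that is not divided by length, and every 95% interval covers counting error only. The genes of the group held 137332 UMIs in Irx5KO (2.79% of the library) and 116814 in WT (2.95%).

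Summed over all 97 genes, the level was highest in mural-like cells and neuron-like cells and lowest in microglia-like cells, in both libraries. Mural-like cells, the contractile cells of the vessel wall, had 32857 CPM in Irx5KO (39 cells) and 37205 CPM in WT (56 cells). Neuron-like cells had 32001 CPM in Irx5KO (896 cells) and 35956 CPM in WT (627 cells), and within each library their interval met that of the mural-like cells. OPC-like cells followed with 28811 CPM in Irx5KO and 32591 CPM in WT, next to committed oligodendrocyte precursor-like cells with 27135 CPM in Irx5KO and 34209 CPM in WT, and the intervals of these precursor classes met within each library. Tanycyte-like cells, glial cells of the ventricle wall, stood lower, at 22156 CPM in Irx5KO and 24465 CPM in WT. Mature oligodendrocyte-like cells were at 19371 CPM in Irx5KO and 21740 CPM in WT, lower than their precursors. The astrocyte-like, ependymal-like, VLMC-like, endothelial-like, epithelial-like and pars tuberalis-like cells lay between 17460 and 22033 CPM in Irx5KO and between 19665 and 24308 CPM in WT, and within each library the intervals of neighbours in the order met, oligodendrocyte-like cells included. Microglia-like cells had 13015 CPM in Irx5KO and 13513 CPM in WT, below every other class with no contact between intervals. Part of this order moved with depth. Among cells of under 1500 UMIs, mural-like cells were at 32305 CPM in Irx5KO and 36389 CPM in WT and OPC-like cells at 28682 CPM in Irx5KO and 31767 CPM in WT, while neuron-like cells were at 21567 CPM in Irx5KO and 23142 CPM in WT. Neuron-like cells thus came below OPC-like cells there and close to tanycyte-like cells, which had 20878 CPM in Irx5KO and 23415 CPM in WT.

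**Figure D1:**
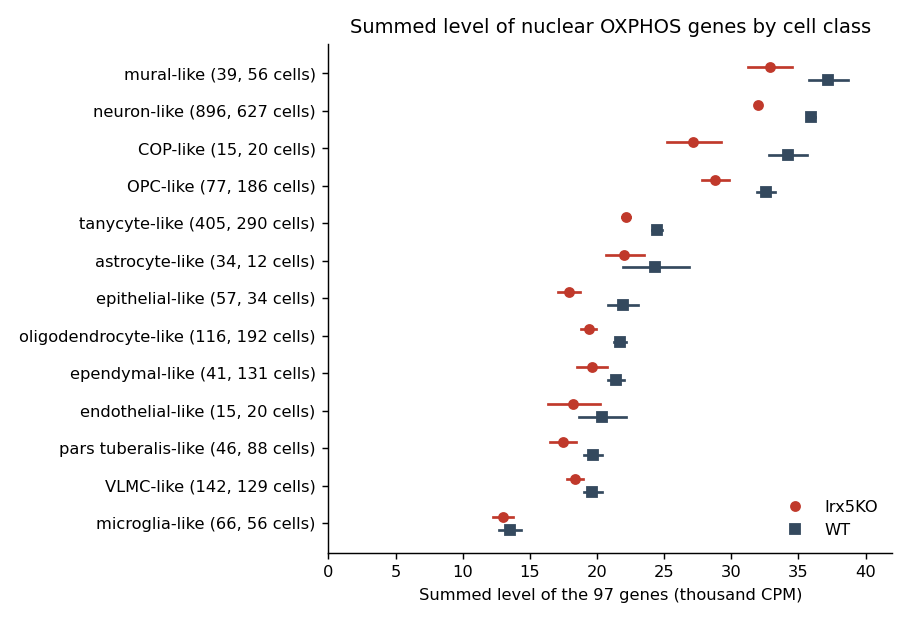
Summed level (CPM in units of 1000, linear x axis starting at 0) of the 97 nuclear oxidative phosphorylation genes by cell class, with the cells in Irx5KO and WT in brackets, circles for Irx5KO and squares for WT. Lines are exact Poisson 95% intervals. Mural-like and neuron-like cells have the highest sums (32857 and 32001 CPM in Irx5KO, 37205 and 35956 CPM in WT), microglia-like cells the lowest (13015 CPM in Irx5KO, 13513 CPM in WT).

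The class with the highest level differed between single genes. Over the 10 classes with at least 50 cells in both libraries together, 34 of the 97 genes had their highest level in neuron-like cells, 31 in mural-like cells and 18 in OPC-like cells, a count made with cells of all depths. The flattest profiles belonged to Uqcrh, the hinge protein of complex III, whose highest class stood 1.66 times above its lowest, and to Cox4i1, the common form of the first nuclear subunit of complex IV, at 1.83 times. Atp5b, the catalytic β subunit of ATP synthase, spread over 4.0 times between its highest class (mural-like) and its lowest. Within neuron-like cells no gene dominated, since the top 5 held 16.0% of the summed level in Irx5KO and 15.2% in WT.

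The summed level was lower in Irx5KO than in WT in all 6 compared classes, though not beyond counting error in microglia-like cells, and scaling by the median of ratios turned the log2 ratio to 0.021 in VLMC-like and 0.14 in microglia-like cells. Scaling by trimmed means lowered the log2 ratio of every gene by 0.11 in oligodendrocyte-like and 0.16 in OPC-like cells and by less elsewhere. The ratio of Irx5KO to WT was 0.890 in neuron-like cells (interval 0.881 to 0.899), 0.906 in tanycyte-like cells (0.886 to 0.926) and 0.891 in oligodendrocyte-like cells (0.861 to 0.922). It was 0.884 in OPC-like cells (0.848 to 0.921), 0.934 in VLMC-like cells (0.890 to 0.980) and 0.963 in microglia-like cells (0.885 to 1.048). These classes come from the same 2 libraries, so their ratios are not independent of each other. Cell by cell, the members made up a median of 3.09% of a neuron-like cell's UMIs in Irx5KO (quartiles 1.58% and 3.74%) and 3.34% in WT (1.98% and 4.12%). The spread between cells of a library was thus far wider than the shift of the median, and the quartile ranges overlapped. The median share in tanycyte-like cells was 2.14% in Irx5KO and 2.37% in WT, and in OPC-like cells 2.87% in Irx5KO and 3.24% in WT.

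Depth moved with the level of these genes. Neuron-like cells had a median of 2418.5 UMIs in Irx5KO and 2129 in WT, and deeper neuron-like cells gave the genes a larger share. Within cells of under 1500 UMIs the sum was 21567 CPM in Irx5KO and 23142 CPM in WT (ratio 0.932). Within cells of 1500 to under 3000 UMIs it was 25140 CPM in Irx5KO and 31229 CPM in WT (0.805), and in cells of 3000 UMIs or more 34875 CPM in Irx5KO and 39885 CPM in WT (0.874). The sum was therefore lower in Irx5KO within each depth band. In tanycyte-like cells, where WT was the deeper library (median 1614 UMIs in Irx5KO, 1817.5 in WT), the sum was 22164 CPM in Irx5KO and 24282 CPM in WT in the middle band and 23054 CPM in Irx5KO and 25373 CPM in WT in the deepest, so it changed less with depth, and the 3 bands gave ratios of 0.892, 0.913 and 0.909. Keeping only cells with at least 800 genes brought the tanycyte-like log2 ratio to −0.078, against −0.14 with all cells.

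Among the neurons, cells named by a list of suprachiasmatic markers had 30873 CPM in Irx5KO (104 cells) and 36269 CPM in WT (140 cells), a ratio of 0.851 (0.828 to 0.875). A cluster whose markers included Ghrh, the growth hormone-releasing hormone gene, had 33218 CPM in Irx5KO (172 cells) and 36666 CPM in WT (51 cells), a ratio of 0.906. Neuron-like cells that no marker list named, 498 in Irx5KO and 356 in WT, had 32241 and 36103 CPM (0.893). Fewer than 50 cells in 1 library leave only levels for the others. Agrp-like neurons, which drive feeding, had 28992 CPM in Irx5KO (43 cells) and 36574 CPM in WT (13 cells). Kndy-like neurons, which drive gonadotropin-releasing hormone pulses, had 28773 CPM in Irx5KO (46 cells) and 36211 CPM in WT (16 cells). Foxb1-like neurons had 32824 CPM in Irx5KO (33 cells) and 31560 CPM in WT (51 cells). Over the 5 neuron clusters with at least 50 cells in each library the ratio lay between 0.794 and 1.04. The cluster at 1.04 (1.01 to 1.07) held 142 cells in Irx5KO and 109 in WT with 28212 and 27091 CPM, so the lower sum was not seen in every cluster.

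The complexes did not share 1 ratio. In neuron-like cells complex I summed to 11952 CPM in Irx5KO and 13929 CPM in WT (ratio 0.858, interval 0.844 to 0.872), complex III to 2917 and 3351 CPM (0.871, 0.843 to 0.899) and complex IV to 8359 and 9438 CPM (0.886, 0.869 to 0.903). Complex V was nearer to equal, with 6670 CPM in Irx5KO and 7064 CPM in WT (0.944, 0.924 to 0.965). Complex II, which belongs to the citric acid cycle as well as to the electron transport chain, went the other way, with 830 CPM in Irx5KO and 771 CPM in WT (1.075, 1.007 to 1.149). Its interval meets none of those of complexes I, III, IV and V, but among neuron-like cells of 1500 to under 3000 UMIs its log2 ratio was −0.026 in place of 0.10, and with every cell weighted alike it was 0.0057. In tanycyte-like cells complex I had the lowest ratio (0.866, 0.836 to 0.897) and complex II again lay above 1 (1.090, 0.944 to 1.26), with an interval that includes 1. In oligodendrocyte-like cells complex II summed to 637 CPM in Irx5KO and 506 CPM in WT (1.26, 1.02 to 1.55), complex I to 7136 and 8307 CPM (0.859), and complex V to 4001 and 3969 CPM (1.008, 0.932 to 1.09). In OPC-like cells complex II was at 0.931 (0.727 to 1.18), with an interval that includes 1. Scaling by trimmed means takes 0.042 off log2 ratios in neuron-like cells and 0.11 off in oligodendrocyte-like cells. Scaling by the median of ratios takes off 0.055 and 0.12. Under either scaling the complex II intervals of both classes include 1.

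**Figure D2:**
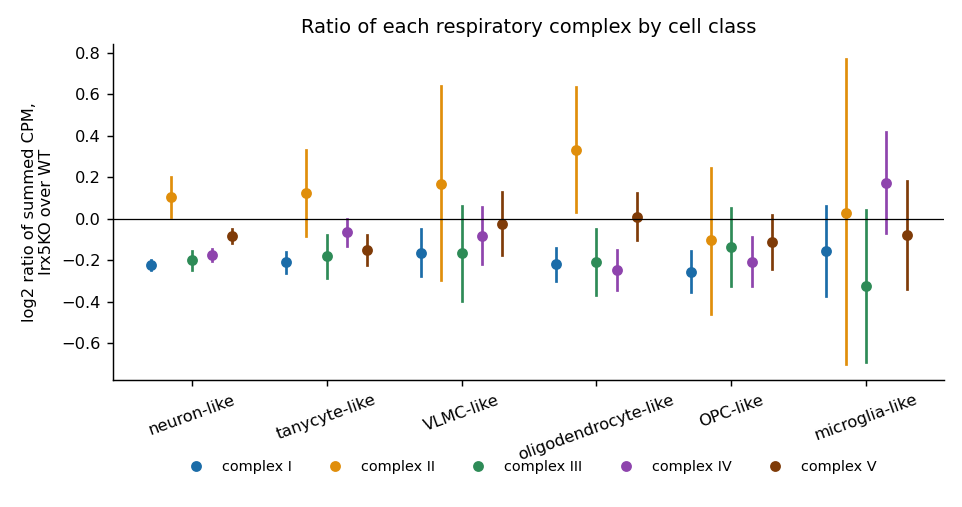
Log2 ratio of the summed CPM in Irx5KO to that in WT (y axis) for each complex in the 6 compared classes, with exact conditional binomial 95% intervals and a line at 0 for equal levels. In neuron-like cells complexes I (−0.22), III (−0.20), IV (−0.18) and V (−0.08) lie below 0 and complex II (0.10) above it.

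Gene by gene, 64 of the 90 measured members (71.1%) had a ratio below 1 in neuron-like cells, against 42.5% of all 10910 genes measured there. Their median log2 ratio was −0.12, against 0.07 over all genes. In tanycyte-like cells 60 of 83 (72.3%) lay below 1, against 47.3% of all genes, with a median of −0.13 against 0.03. The share was 70.4% of 71 against 56.5% in OPC-like cells, 64.8% of 71 against 51.3% in oligodendrocyte-like cells, and 63.2% of 57 against 53.0% in VLMC-like cells. Microglia-like cells had 12 measured members, of which 3 (25%) lay below 1, against 47.2% of all 472 genes measured there, the opposite direction. Most shifts were small. In neuron-like cells 7 members (7.78%) were at least 1.5-fold lower in Irx5KO, against 6.48% of all genes, and 1 (1.11%) was at least 1.5-fold higher, against 12.4%. The share that was lower thus stood near that of all genes, although among neuron-like cells of 1500 to under 3000 UMIs 20 of 79 measured members (25.3%) were that much lower, against 9.64% of the genes measured in that band. Tanycyte-like cells had 6 members lower (7.23%, all genes 8.21%) and 4 higher (4.82%, all genes 10.1%). VLMC-like cells had 9 lower (15.8%, all genes 15.0%) and 1 higher (1.75%, all genes 12.2%). Oligodendrocyte-like cells had 9 lower (12.7%, all genes 10.7%) and 3 higher (4.23%, all genes 9.18%). In OPC-like cells 11 were lower (15.5%, all genes 14.4%) and 4 higher (5.63%, all genes 7.96%), and in microglia-like cells 1 lower (8.33%, all genes 14.8%) and 1 higher (8.33%, all genes 17.2%). The single higher member was Cox5a in VLMC-like cells (1.99, 1.13 to 3.62, 41 UMIs in Irx5KO and 19 in WT) and Atp5e in microglia-like cells (1.69, 0.959 to 3.1), where the lower one was Atp5j (0.490, 0.295 to 0.801). The 7 members not measured in neuron-like cells were Cox4i2, Cox6b2, Cox7a1, Cox7b2, Cox8b, Cox8c and Ndufa4l2, all of them isoforms or relatives with few UMIs there.

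Complex I, the entry point for NADH electrons, had 30 of 36 members below 1 in neuron-like cells (83.3%, all genes 42.5%), with a median log2 ratio of −0.14. In tanycyte-like cells 29 of 36 lay below 1 (80.6%, all genes 47.3%), with a median of −0.20. The 3 furthest apart in neuron-like cells are small accessory subunits of the membrane arm. Ndufa1 (chrX:37187588-37191163 in mm10) had 943 UMIs in Irx5KO and 910 UMIs in WT, or 305 and 502 CPM, a ratio of 0.608 (0.555 to 0.667). Ndufb4 (chr16:37647170-37654453) had 703 UMIs in Irx5KO and 653 in WT, or 228 and 360 CPM, a ratio of 0.632 (0.567 to 0.704). Ndufa3 (chr7:3617373-3620327) had 1101 UMIs in Irx5KO and 977 in WT, or 357 and 539 CPM, a ratio of 0.661 (0.606 to 0.722). Exons of Ndufa3 overlap those of Tfpt on the opposite strand. Ndufa6, a subunit of the peripheral arm and the complex I gene with most UMIs, was less far apart, with 689 CPM in Irx5KO and 773 CPM in WT (0.891).

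All 3 were also at least 1.5-fold lower in another compared class. Ndufa3 had 278 CPM in Irx5KO tanycyte-like cells and 458 CPM in WT ones (0.606, 0.505 to 0.726), with 221 and 269 UMIs, and came to a log2 ratio of −0.57, just under 1.5-fold, with every cell weighted alike. Ndufb4 stood at 248 CPM in Irx5KO and 426 CPM in WT in OPC-like cells (0.581, 27 and 112 UMIs) and at 161 and 248 CPM in oligodendrocyte-like cells (0.650, 43 and 101 UMIs), where weighting every cell alike gave a log2 ratio of −0.33, under 1.5-fold. Ndufs5, a subunit on the intermembrane face, was at 93.0 CPM in Irx5KO and 152 CPM in WT in tanycyte-like cells (0.613, 0.444 to 0.844), and among cells with at least 800 genes its log2 ratio of −0.71 shrank to −0.16. Oligodendrocyte-like cells also had Ndufb10 at 154 CPM in Irx5KO and 268 CPM in WT (0.574), Ndufb6 at 146 and 241 CPM (0.608), Ndufs6 at 169 and 268 CPM (0.630) and Ndufa1 at 131 and 209 CPM (0.629). OPC-like cells had Ndufa5 at 248 CPM in Irx5KO and 499 CPM in WT (0.497), Ndufa12 at 303 and 510 CPM (0.594) and Ndufb9 at 303 and 503 CPM (0.603), all from 27 to 33 UMIs in Irx5KO. In VLMC-like cells Ndufa2 had 308 CPM in Irx5KO and 475 CPM in WT (0.647, 0.453 to 0.920), under 1.5-fold when scaled by the median of ratios (log2 ratio −0.51). Ndufb6, Ndufs6 and Ndufa2 overlap exons of Smim27, Mrpl36 and Tmco6 on the opposite strand, Ndufb9 overlaps Gm49356 on its own strand, and no source used here says whether counting used strand.

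The assembly factor Ndufaf2, a chaperone needed late in the building of complex I, was among the members furthest apart. It spans chr13:108002715-108158623 in mm10, and its exons overlap those of B230220B15Rik on the opposite strand. In neuron-like cells it had 298 UMIs in Irx5KO and 338 in WT, or 96.5 and 187 CPM, a ratio of 0.518 (0.441 to 0.607). In tanycyte-like cells it had 91.7 CPM in Irx5KO and 141 CPM in WT (0.648, 0.467 to 0.899). That log2 ratio of −0.63 became −0.31 among tanycyte-like cells of 1500 to under 3000 UMIs and −0.49 with every cell weighted alike, both under 1.5-fold. Oligodendrocyte-like cells had 116 CPM in Irx5KO and 189 CPM in WT (0.615, 0.391 to 0.944).

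Complex II, succinate dehydrogenase, had all 4 members above 1 in neuron-like cells, each with an interval that includes 1. Sdha, the flavoprotein that oxidises succinate, had 207 CPM in Irx5KO and 197 CPM in WT (1.05, 0.920 to 1.20). Sdhb, the iron-sulfur subunit, had 355 CPM in Irx5KO and 339 CPM in WT (1.05, 0.947 to 1.16). The membrane anchors Sdhc and Sdhd had 123 and 145 CPM in Irx5KO and 107 and 129 CPM in WT, with ratios of 1.15 (0.965 to 1.37) and 1.13 (0.961 to 1.33). No single gene of the 4 thus differed beyond counting error. Only their sum did, by a small margin that was lost under scaling by trimmed means or by the median of ratios. The log2 ratio of the sum, 0.10, also stood near the median of 0.07 over all genes measured in neuron-like cells.

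Complex III, which passes electrons to cytochrome c, had 6 of 8 members below 1 in neuron-like cells (75%, all genes 42.5%), with a median log2 ratio of −0.21. None was at least 1.5-fold apart (all genes 6.48% lower and 12.4% higher). Uqcrb, known as a ubiquinone-binding subunit, had 412 CPM in Irx5KO and 556 CPM in WT (0.741, 0.682 to 0.806). Over all cells Uqcrb had 1704 UMIs in Irx5KO and 1746 in WT, and its 3 near-identical processed pseudogenes together 720 and 787. How its reads were split with these copies is uncertain, and its exons overlap those of Gm10767 on the opposite strand. Uqcrc2, a core subunit, had 339 CPM in Irx5KO and 340 CPM in WT (0.997, 0.901 to 1.10).

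Complex IV, cytochrome c oxidase, held the member with the lowest ratio in neuron-like cells. Of its 12 members measured in neuron-like cells 10 lay below 1 (83.3%, all genes 42.5%). Cox7c (chr13:86044816-86046904), a small subunit that spans the membrane, had 595 UMIs in Irx5KO and 704 in WT, or 193 and 388 CPM, a ratio of 0.496 (0.444 to 0.554). In tanycyte-like cells it had 102 CPM in Irx5KO and 233 CPM in WT (0.436, 0.327 to 0.578), in OPC-like cells 138 and 305 CPM (0.452, 0.242 to 0.791) and in oligodendrocyte-like cells 124 and 224 CPM (0.554, 0.360 to 0.833). VLMC-like cells, at 103 CPM in Irx5KO and 129 CPM in WT, had a ratio of 0.795 with an interval that includes 1 (0.407 to 1.54). Cox5b (chr1:36691449-36693681), a zinc-binding subunit of the matrix side, had 377 CPM in Irx5KO and 629 CPM in WT in neuron-like cells (0.599, 0.552 to 0.651), 195 and 302 CPM in tanycyte-like cells (0.646, 0.517 to 0.805) and 303 and 510 CPM in OPC-like cells (0.594, 0.393 to 0.874). In tanycyte-like cells its log2 ratio of −0.63 became −0.41 among cells of 1500 to under 3000 UMIs and −0.50 among cells with at least 800 genes, both under 1.5-fold.

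Cox7b (chrX:106015700-106022450), another small membrane subunit, was higher in Irx5KO. Neuron-like cells had 3388 UMIs in Irx5KO and 1367 in WT, or 1097 and 754 CPM (1.46, 1.37 to 1.55). Tanycyte-like cells had 707 CPM in Irx5KO and 426 CPM in WT (1.66, 1.43 to 1.94), and oligodendrocyte-like cells 431 and 253 CPM (1.70, 1.30 to 2.25). In OPC-like cells (762 CPM in Irx5KO, 670 CPM in WT) and VLMC-like cells (551 CPM in Irx5KO, 522 CPM in WT) the intervals include 1. Within complex IV, therefore, the ratio of Cox7b to Cox7c differed between the libraries in the neuron-like, tanycyte-like and oligodendrocyte-like cells, where their intervals lie on opposite sides of 1. Other abundant subunits were within 1.5-fold in neuron-like cells. Cox4i1 had 1244 CPM in Irx5KO and 1393 CPM in WT (0.892), and Cox8a, one of the smallest subunits, 1014 and 1140 CPM (0.890). Ndufa4, once assigned to complex I and now placed in complex IV, had 940 CPM in Irx5KO and 1029 CPM in WT (0.913), Cox7a2 725 and 795 CPM (0.912) and Cox6b1, which lies where the enzyme dimerises, 747 and 859 CPM (0.869). Cox6c had 813 CPM in Irx5KO and 1042 CPM in WT (0.780, 0.734 to 0.828) and Cox6a1 664 and 867 CPM (0.765, 0.716 to 0.818). In oligodendrocyte-like cells Cox6c reached 675 CPM in Irx5KO and 1029 CPM in WT (0.656, 0.548 to 0.783), just under 1.5-fold with every cell weighted alike (log2 ratio −0.57) or with its near-identical gene added (−0.58). Its exons overlap those of Vps13b on the opposite strand. Cox4i1 turned the other way in tanycyte-like cells, with 883 CPM in Irx5KO and 772 CPM in WT (1.14, 1.01 to 1.29).

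Complex V, ATP synthase, was mixed, with 9 of 15 members below 1 in neuron-like cells (60%, all genes 42.5%) and a median log2 ratio of −0.04. Atp5b had 735 CPM in Irx5KO and 757 CPM in WT (0.971, 0.907 to 1.04). Atp5k (chr5:108433244-108434448), the e subunit that sits where ATP synthase dimers meet, had 1166 UMIs in Irx5KO and 1038 in WT in neuron-like cells, or 378 and 573 CPM (0.659, 0.606 to 0.718). Its ratio was 0.474 in tanycyte-like cells (209 CPM in Irx5KO, 440 CPM in WT, interval 0.388 to 0.579) and 0.445 in OPC-like cells (285 CPM in Irx5KO, 640 CPM in WT, 0.293 to 0.655). Other members of complex V were 1.5-fold apart in single classes. OPC-like cells had Atp5a1, the α subunit, at 826 CPM in Irx5KO and 544 CPM in WT (1.52, 1.15 to 1.99) and Atp5f1, of the peripheral stalk, at 560 and 358 CPM (1.56, 1.11 to 2.18). Both fell short of 1.5-fold under scaling by trimmed means (log2 ratios of 0.44 for Atp5a1 and 0.48 for Atp5f1), under scaling by the median of ratios (0.41 and 0.45) and in cells with at most 10% mitochondrial UMIs (0.58 and 0.57). Oligodendrocyte-like cells had Atp5g3 at 270 CPM in Irx5KO and 167 CPM in WT (1.62, 1.14 to 2.29), or a log2 ratio of 0.57 when scaled by the median of ratios, just under 1.5-fold. VLMC-like cells had Atp5j2, the f subunit, at 265 CPM in Irx5KO and 399 CPM in WT (0.663, 0.450 to 0.971), and its log2 ratio of −0.59 was −0.47 when scaled by the median of ratios and −0.57 with every cell weighted alike.

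The c subunit, which forms the rotor ring, is encoded by 3 genes whose mature proteins are identical. Atp5g1 was the only member at least 1.5-fold higher in neuron-like cells of Irx5KO, with 659 UMIs in Irx5KO and 169 UMIs in WT, or 213 and 93.3 CPM, a ratio of 2.29 (1.93 to 2.73). Atp5g3, the form with most UMIs, did not follow it, at 562 CPM in Irx5KO and 554 CPM in WT (1.01, 0.937 to 1.10), and Atp5g2 had only 47 and 36 UMIs (0.766, 0.486 to 1.22). Atp5g1 lies at chr11:96068852-96075670 and has a processed pseudogene, Gm10039, at chr11:100361716-100362126, which is at least 95% identical over at least 50% of the last 400 bases. Gm10039 moved the opposite way, with 1006 UMIs in Irx5KO and 966 UMIs in WT in neuron-like cells, or 326 and 533 CPM (0.611, 0.559 to 0.668). Counted together the pair had 539 CPM in Irx5KO and 626 CPM in WT (0.861, 0.798 to 0.929), so the direction of Atp5g1 turned round. In tanycyte-like cells the directions were alike, with Atp5g1 at 87.9 CPM in Irx5KO and 39.2 CPM in WT (2.24), Gm10039 at 138 and 223 CPM (0.619) and the pair at 226 and 262 CPM (0.862, 0.691 to 1.08). Annotated coding transcripts of Atp5g1 range between 596 and 4715 bases, and whether the libraries differ in the transcript ends counted for it was not tested.

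Near-identical genes were found in the files for 13 members, 21 of the partners being processed pseudogenes, so the split of reads between a member and its copies is uncertain. For Uqcrc2 the match is Pdzd9, a protein-coding gene on the opposite strand whose exons overlap those of Uqcrc2. That match lies at the same locus and is not a separate copy. Cox7c stayed lower when its copy Gm10012 was added, with 240 CPM in Irx5KO and 428 CPM in WT in neuron-like cells (0.561, 0.507 to 0.621) and 139 and 244 CPM in tanycyte-like cells (0.572, 0.442 to 0.738), while in oligodendrocyte-like cells the pair had a log2 ratio of −0.55, just under 1.5-fold. Atp5l, the g subunit of the dimer interface, had 39.5 CPM in Irx5KO and 32.0 CPM in WT on its own in neuron-like cells (1.24, 0.896 to 1.72). Its 9 near-identical genes together had 95.9 CPM in Irx5KO and 201 CPM in WT, and all 10 had 135 and 233 CPM (0.581, 0.507 to 0.667). Atp5k with Atp5k-ps2 had a ratio of 0.637 in neuron-like cells and 0.465 in tanycyte-like cells, Cox6c with Gm16399 had 0.739 in neuron-like cells, and Ndufs5 with BC002163 had 0.738 in neuron-like cells and 0.654 in tanycyte-like cells. Adding partners moved Atp5h, Ndufb11 and Uqcrc2 in neuron-like cells by less than 0.1 on the log2 scale.

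**Figure D3:**
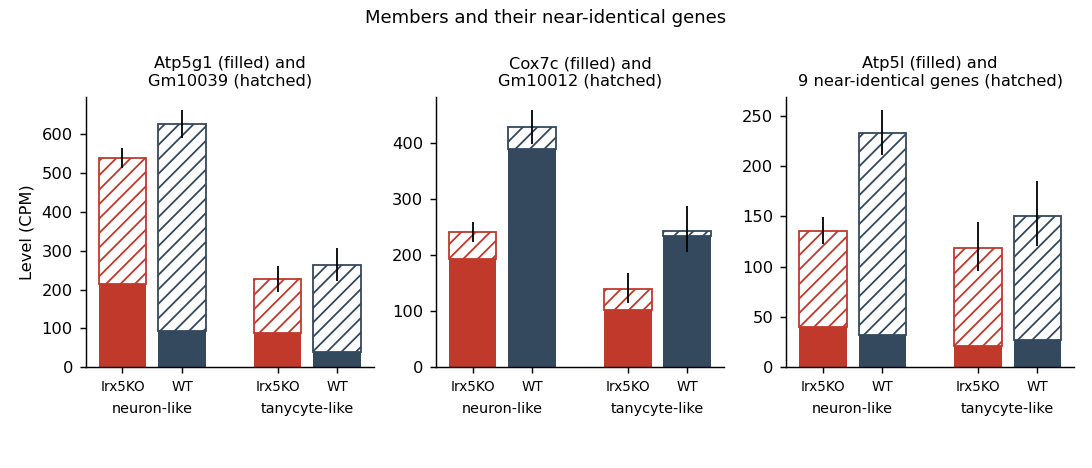
Level (CPM, linear axis starting at 0) of Atp5g1, Cox7c and Atp5l (filled) and of their near-identical genes (hatched, stacked) in neuron-like and tanycyte-like cells of the Irx5KO and WT libraries; error lines are exact Poisson 95% intervals of the stacked sum. Atp5g1 alone is higher in Irx5KO neuron-like cells (213 CPM, WT 93.3 CPM), and its stack with Gm10039 is lower (539 CPM, WT 626 CPM).

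Transcript length moved with the ratios in neuron-like, tanycyte-like and oligodendrocyte-like cells, and less clearly elsewhere. Many of the members furthest apart have short transcripts, among them Atp5k (371 bases), Ndufa1 (419 bases), Ndufa3 (515 bases) and Cox7c (540 bases), by the median length of the principal annotated coding transcripts. In neuron-like cells the 32 measured members under 700 bases had a median log2 ratio of −0.22, the 30 of 700 to under 1400 bases −0.12, and the 26 of 1400 bases or more 0.01. The last bin holds Atp5g1, placed at 4660 bases although its annotated coding transcripts range between 596 and 4715 bases. Atp5g1 is the 1 member of that bin at least 1.5-fold higher. Other genes, ribosomal protein genes left out, had medians of −0.17 under 700 bases (164 genes), −0.00 between 700 and under 1400 (989 genes) and 0.08 from 1400 bases (7531 genes). In each of these wide bins the median of members and that of other genes lay within 0.12 of each other in neuron-like cells. Lengths were not matched within a bin. In tanycyte-like cells the members' medians were −0.21, −0.07 and 0.09 in the 3 length bins, against −0.16, 0.00 and 0.04 in other genes. Oligodendrocyte-like cells gave −0.34, −0.19 and 0.19 in members, against −0.14, −0.08 and 0.03. In the shortest and longest bins these medians lay further apart than in neuron-like cells. Across members Spearman's rho between length and log2 ratio was 0.54 in neuron-like cells (88 members) and 0.47 in tanycyte-like cells (82 members), where all points share the same 2 libraries. It was 0.44 in oligodendrocyte-like cells (70 members), 0.23 in OPC-like cells (70 members) and 0.18 in VLMC-like cells (56 members), and −0.40 over the 12 members measured in microglia-like cells, the opposite direction. Over other genes, ribosomal protein genes left out, rho was weaker in every class. For them it was 0.12 in neuron-like, 0.06 in tanycyte-like and 0.12 in oligodendrocyte-like cells. OPC-like cells gave 0.07, VLMC-like cells −0.02 and microglia-like cells −0.28. The members' medians from short to long were −0.24, −0.09 and 0.03 in VLMC-like cells, against −0.18, −0.02 and −0.01 in other genes. In OPC-like cells the members' medians were −0.14, −0.22 and 0.13, against −0.32, −0.08 and −0.06 in other genes. The middle bin of members was lowest there, and members under 700 bases lay above other genes under 700 bases. The part of transcript length in the members' ratios was not tested.

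**Figure D4:**
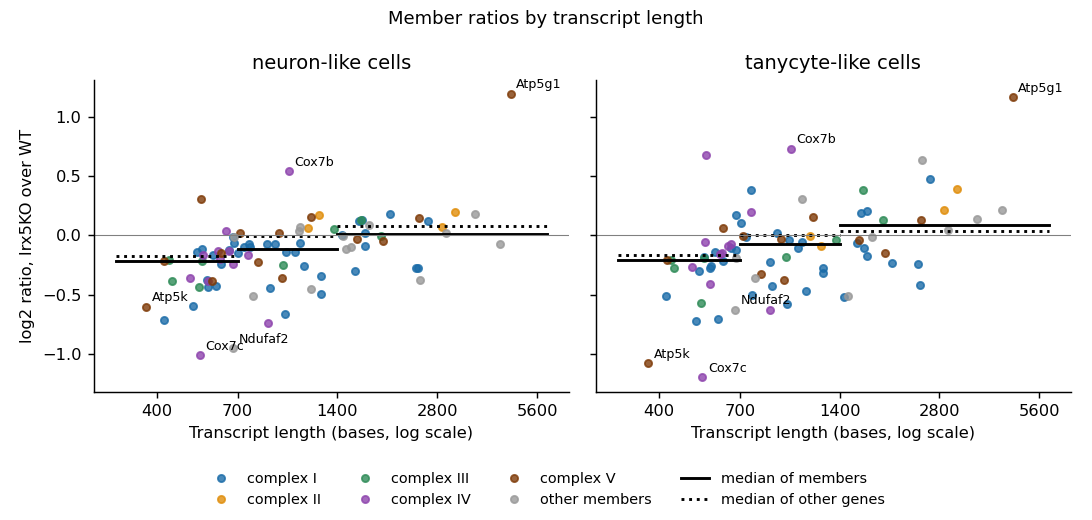
Log2 ratio of Irx5KO to WT (y axis) against transcript length in bases (log x axis) for measured members in neuron-like and tanycyte-like cells, with the median of members and of other genes in each of 3 length bins. In neuron-like cells the members' medians are −0.22 under 700 bases, −0.12 between 700 and under 1400 and 0.01 from 1400 bases.

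The restricted isoforms were found mostly in a few cell classes. Cox4i2, the isoform tied to low-oxygen responses, had 565 CPM in Irx5KO (27 UMIs) and 526 CPM in WT (36 UMIs) in mural-like cells, against 21.6 CPM in Irx5KO and 41.1 CPM in WT in VLMC-like cells and 13.8 and 8.52 CPM in tanycyte-like cells. It had a UMI in 14 of 39 mural-like cells in Irx5KO (35.9%, Clopper-Pearson interval 21.2% to 52.8%) and in 23 of 56 in WT (41.1%, 28.1% to 55.0%). In neuron-like cells, which use Cox4i1, the shares were 0.446% in Irx5KO and 0.319% in WT, although those cells were deeper (median 2418.5 and 2129 UMIs, against 1118 and 1160.5 in mural-like cells). Thinning to 1000 UMIs per cell left out 16 mural-like cells of each library that had fewer. The mural-like shares were then 5 of 23 cells in Irx5KO (21.7%, 7.46% to 43.7%) and 15 of 40 in WT (37.5%, 22.7% to 54.2%), with overlapping intervals. Thinned neuron-like cells had Cox4i2 in 1 of 766 in Irx5KO (0.131%) and 0 of 514 in WT. Endothelial-like cells had no UMI of it in 15 cells of Irx5KO and 20 of WT (median depth 994 and 975.5 UMIs), which allows a share of cells with a UMI of up to 21.8% in Irx5KO and 16.8% in WT (Clopper-Pearson). Ndufa4l2, a relative of Ndufa4 that low oxygen induces, went with it, at 837 CPM in Irx5KO and 920 CPM in WT in mural-like cells. It had a UMI in 22 mural-like cells of Irx5KO (56.4%) and 29 of WT (51.8%), against 0.558% and 0.478% of neuron-like cells. After thinning the mural-like shares were 12 of 23 cells in Irx5KO (52.2%, 30.6% to 73.2%) and 20 of 40 in WT (50%, 33.8% to 66.2%). The common forms were present as well, with Cox4i1 at 1004 CPM in Irx5KO and 1402 CPM in WT and Ndufa4 at 439 and 628 CPM in mural-like cells.

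Cox6b2, known as the testis form of Cox6b1, was found in VLMC-like cells and tanycyte-like cells. VLMC-like cells had 162 CPM in Irx5KO (30 UMIs) and 264 CPM in WT (45 UMIs), with a UMI in 13.4% and 22.5% of cells. Tanycyte-like cells had 123 CPM in Irx5KO (98 UMIs) and 76.7 CPM in WT (45 UMIs), with a UMI in 15.3% and 11.7% of cells. Neuron-like cells stood at 4.86 CPM in Irx5KO and 6.07 CPM in WT, with a UMI in 1.45% and 1.28% of cells. The ratio was 0.613 (0.373 to 0.995) in VLMC-like cells and 1.61 (1.12 to 2.34) in tanycyte-like cells, in opposite directions. When scaled by the median of ratios, the VLMC-like interval includes 1. Median depth was 1084 UMIs in Irx5KO and 1175 in WT for VLMC-like cells and 1614 and 1817.5 for tanycyte-like cells. Cox6a2, the heart and skeletal muscle form of Cox6a1, had few UMIs in neuron-like cells, with 24.3 CPM in Irx5KO (75 UMIs) and 28.7 CPM in WT (52 UMIs) and a UMI in 5.25% and 4.47% of cells, and in tanycyte-like cells, with 16.3 CPM in Irx5KO and 25.6 CPM in WT and a UMI in 2.72% and 4.14% of cells. Thinned to 1000 UMIs the shares were 13 of 766 cells in Irx5KO (1.70%) and 11 of 514 in WT (2.14%) for neuron-like cells. For tanycyte-like cells they were 9 of 325 in Irx5KO (2.77%) and 7 of 246 in WT (2.85%). Oligodendrocyte-like cells (median depth 1737.5 and 1850.5 UMIs) had it in 1 of 116 cells in Irx5KO (0.862%, 0.0218% to 4.71%) and 0 of 192 in WT, and the shallower VLMC-like and mural-like cells had 0 UMIs of it. How much of these low levels is background was not tested. Cox7a1, the muscle form of Cox7a2, was highest in tanycyte-like cells, with 30.2 CPM in Irx5KO (24 UMIs) and 29.0 CPM in WT (17 UMIs). Cox7b2 (6 UMIs in Irx5KO and 11 in WT over all cells), Cox8b (5 and 1) and Cox8c (1 and 1) were too rare to place.

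**Figure D5:**
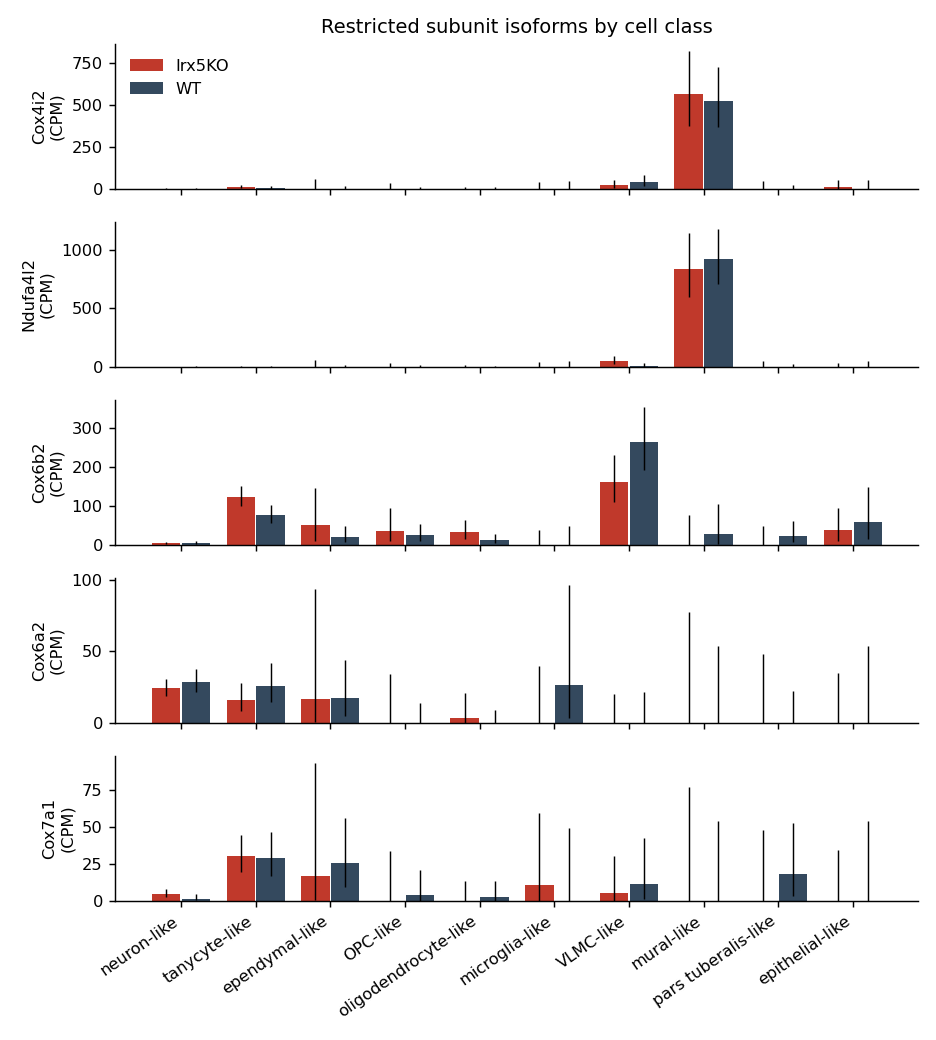
Level (CPM) of the tissue-restricted isoforms by cell class in the Irx5KO and WT libraries, with exact Poisson 95% intervals. Cox4i2 (565 CPM in Irx5KO, 526 CPM in WT) and Ndufa4l2 (837 CPM in Irx5KO, 920 CPM in WT) stand highest in mural-like cells, and Cox6b2 in VLMC-like and tanycyte-like cells.

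Promoters of these genes are known for binding NRF1, GABP (an ETS factor) and YY1, which link nuclear genes to mitochondrial output. RefSeq promoter windows of 300 bases (250 before and 50 after the start, build GRCm38.p6) matched 81 of the 97 members. Both strands were searched for the cores CGCATGCG (NRF1), CCGGAAG (GABP) and AAGATGGCG (YY1). The NRF1 core was in 11 of the 81 members (13.6%) and in 2.07% of all 27025 genes with a window, the GABP core in 21 (25.9%) and 9.93%, and the YY1 core in 9 (11.1%) and 1.64%. At least 1 core was in 34 members (42%), against 12.8% of all genes. No match overlapped another in the members' windows. A match is a description of these letters, not a binding site or a cause of any level. Atp5k, Cox6a1 and Uqcr11, small subunits of complexes V, IV and III, are shown because each holds both an NRF1 and a GABP core, and Cox6b1 and Cox6b2 because the common form holds a GABP core and the restricted form none of the 3. Capitals mark the cores on either strand, and all 5 windows are on the minus strand, at chr5:108434350-108434649 for Atp5k, chr5:115348909-115349208 for Cox6a1, chr10:80406772-80407071 for Uqcr11, chr7:30626065-30626364 for Cox6b1 and chr7:4753045-4753344 for Cox6b2.
Atp5k: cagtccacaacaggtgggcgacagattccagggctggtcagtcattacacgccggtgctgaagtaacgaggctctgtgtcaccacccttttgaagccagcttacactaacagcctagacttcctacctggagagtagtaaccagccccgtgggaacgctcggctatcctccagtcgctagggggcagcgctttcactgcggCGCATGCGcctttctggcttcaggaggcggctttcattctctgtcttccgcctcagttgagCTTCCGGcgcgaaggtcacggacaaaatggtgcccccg
Cox6a1: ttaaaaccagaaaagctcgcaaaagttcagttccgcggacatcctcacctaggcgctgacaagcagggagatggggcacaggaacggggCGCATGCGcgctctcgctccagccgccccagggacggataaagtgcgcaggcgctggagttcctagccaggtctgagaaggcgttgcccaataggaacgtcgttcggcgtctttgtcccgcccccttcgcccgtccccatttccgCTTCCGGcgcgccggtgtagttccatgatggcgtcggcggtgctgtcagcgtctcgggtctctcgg
Uqcr11: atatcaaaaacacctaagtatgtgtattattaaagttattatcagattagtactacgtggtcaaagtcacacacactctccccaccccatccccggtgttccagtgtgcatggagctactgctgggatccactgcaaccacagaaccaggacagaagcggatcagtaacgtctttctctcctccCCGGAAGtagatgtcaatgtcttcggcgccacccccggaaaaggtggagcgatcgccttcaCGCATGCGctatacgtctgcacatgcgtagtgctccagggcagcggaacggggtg
Cox6b1: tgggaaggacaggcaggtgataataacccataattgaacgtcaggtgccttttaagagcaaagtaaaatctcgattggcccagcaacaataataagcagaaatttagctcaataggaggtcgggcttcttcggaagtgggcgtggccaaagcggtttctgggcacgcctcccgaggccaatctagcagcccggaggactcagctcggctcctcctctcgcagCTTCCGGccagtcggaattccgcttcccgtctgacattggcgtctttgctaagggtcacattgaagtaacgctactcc
Cox6b2: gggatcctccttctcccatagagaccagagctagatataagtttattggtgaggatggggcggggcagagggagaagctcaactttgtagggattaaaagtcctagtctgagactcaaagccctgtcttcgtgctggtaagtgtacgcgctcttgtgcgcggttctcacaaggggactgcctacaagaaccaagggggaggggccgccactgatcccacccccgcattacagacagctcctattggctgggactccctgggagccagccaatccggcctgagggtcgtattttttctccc
The windows of Cox7c, Cox5b and Atp5g1 hold none of the 3 cores.

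Other genes of the pathway were set beside the members. Of 45 electron carriers and assembly factors, 42 were measured in neuron-like cells, with a median log2 ratio of −0.07. At least 1.5-fold lower in Irx5KO were 2 (4.76%, all genes 6.48%), and 2 were higher (4.76%, all genes 12.4%). The lower ones were Usmg5, which encodes a small ATP synthase-associated protein, at 281 CPM in Irx5KO and 645 CPM in WT (0.436, 0.399 to 0.477), and Cox17, a copper chaperone of complex IV, at 403 and 606 CPM (0.664, 0.612 to 0.721). The higher ones were the complex I assembly factors Foxred1 (1.57, 1.01 to 2.52) and Acad9 (1.63, 1.03 to 2.65). In tanycyte-like cells Usmg5 stood at 104 CPM in Irx5KO and 302 CPM in WT (0.346) and Cox17 at 231 and 377 CPM (0.614). They were among 4 lower (14.3%, all genes 8.21%) and 3 higher (10.7%, all genes 10.1%) of 28 measured. Fewer genes of this list were measured in the smaller classes. In oligodendrocyte-like cells 5 of 11 were lower (45.5%, all genes 10.7%) and 0 higher (all genes 9.18%). OPC-like cells had 5 of 8 lower (62.5%, all genes 14.4%) and 0 higher (all genes 7.96%). VLMC-like cells had 1 of 7 lower (14.3%, all genes 15.0%) and 0 higher (all genes 12.2%). Atpif1, the inhibitor of ATP synthase hydrolysis, had 982 CPM in Irx5KO and 1241 CPM in WT in neuron-like cells (0.792). Of 20 measured genes of the citric acid cycle and pyruvate entry none was 1.5-fold apart in neuron-like cells, with a median log2 ratio of 0.13, for example Mdh1 at 1054 CPM in Irx5KO and 1095 CPM in WT. Of 18 measured glycolytic and lactate genes none was 1.5-fold apart there either (median 0.06), while 3 of 16 measured were higher in tanycyte-like cells (18.8%, all genes 10.1%). These were Hk1 (1.68), Aldoc (1.51) and Eno1, an enolase gene, at 466 CPM in Irx5KO and 295 CPM in WT (1.58), and Aldoc is also in the astrocyte marker list. Of 9 measured genes of mitochondrial biogenesis 1 was higher in neuron-like cells (11.1%, all genes 12.4%), Gabpb1 with 44 UMIs in Irx5KO and 13 in WT (1.99, 1.05 to 4.02). In tanycyte-like cells 1 of 4 measured was higher (25%, all genes 10.1%), Gabpa with 41 UMIs in Irx5KO and 13 in WT (2.32, 1.22 to 4.73). Both encode subunits of GABP and were named after their values were seen.

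The subunits encoded by mitochondrial DNA, 11 genes in the files, summed to 11087 CPM in Irx5KO and 12056 CPM in WT in neuron-like cells (0.920, 0.904 to 0.935) and to 12242 and 13829 CPM in tanycyte-like cells (0.885, 0.859 to 0.912). None of the 7 measured was 1.5-fold apart in either class. In neuron-like cells mt-Nd4, a membrane subunit of complex I, had 1102 CPM in Irx5KO and 1561 CPM in WT (0.706), and mt-Co1, the catalytic core of complex IV, 543 and 368 CPM (1.47). The 79 cytosolic ribosomal protein genes, another group of short and abundant transcripts, summed to a ratio of 0.896 in neuron-like cells, against 0.890 for the members. In the other compared classes their ratio was 0.957 in tanycyte-like cells (members 0.906), 0.893 in oligodendrocyte-like cells (members 0.891), 1.013 in OPC-like cells (members 0.884), 0.918 in VLMC-like cells (members 0.934) and 1.049 in microglia-like cells (members 0.963). Gene by gene the groups were less alike. Of 77 ribosomal protein genes measured in neuron-like cells 55.8% lay below 1 (members 71.1%, all genes 42.5%). Their median log2 ratio was −0.05 (members −0.12). Among those with at least 100 UMIs, single ratios ran from 0.279 (Rpl26) to 14.9 (Rpl29).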

How the data were processed

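Drop-seq libraries of 1 Irx5KO pool and 1 WT pool were analysed. The build mm10 and the tools Seurat 3, STAR 2.6.0b, Picard and bcl2fastq stand in the submitters' processing notes, which give neither their roles nor whether counting used strand. For WT the authors deposited UMI counts (2800 barcodes, 28008 genes). For Irx5KO (2350 barcodes), and in a merged table, the authors deposited natural log values, each ln of 1 plus a count that was first scaled to 10000 in its barcode. Inverting them gave whole Irx5KO counts for 100% of values within 1e-05, and for WT 0 of 4275938 UMIs differed between the merged and the raw table. The design had assumed counts for both libraries. Of the WT barcodes 173 are not in the merged table, and 25618 genes are shared.

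A cell needed 500 genes or more and 20% or less of mitochondrial UMIs, which 1972 in Irx5KO and 1851 in WT met. Scrublet, at an expected rate of 5%, removed 23 (1.17%) and 10 (0.54%). Leiden clustering of both libraries (resolution 1) used 15 neighbours in 30 principal components of 2000 variable genes. Clusters were named by marker lists, which needed a score of 1 or more and 3 markers up, a rule set with the data in view. Of the members, Cox4i2, Cox8b and Ndufa4l2 were among the variable genes.

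UMIs were summed per class and library. With 1 library per genotype no test was made. Ratios have exact conditional binomial 95% intervals, levels exact Poisson and shares Clopper-Pearson intervals, all for counting error only. A count of 0 was read as under 3 counts. At least 1.5-fold apart is a rule of size alone. Named are the 10 members with most UMIs, those with at least 100 UMIs in a class and 1.5-fold apart there with an interval that excludes 1, isoforms, c-subunit genes, complex II, and members at least 5 times the median class level with at least 30 UMIs. From each list of other pathway genes, up to 3 with most UMIs and up to 3 furthest apart with at least 100 UMIs could be named. Members and gene lists were chosen with earlier results of these data known. Uqcrb, Uqcrc2, Uqcrh, Atp5l and the other genes named outside this rule were chosen after their values were seen.

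Positions and lengths are from GENCODE vM21, promoters from RefSeq (GRCm38.p6). Near-identical genes were found with blastn 2.17.0. The software was matplotlib 3.10.9, scanpy 1.11.5, igraph 0.11.9, anndata 0.12.19, pandas 2.3.3, scipy 1.17.1 and numpy 2.4.6 under Python 3.11.15, and the interval code was tested on simulated data. Alternatives were other scalings, cell filters, clustering, UMI minimums, equal weights of cells or clusters, and members counted with near-identical genes.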

Additional observations from a re-analysis of the deposited data

Results flagged for a closer look

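Cox6b2 had a log2 ratio of Irx5KO to WT of 0.68 in tanycyte-like cells and of −0.71 in VLMC-like cells, on opposite sides of no difference. The values rest on 98 UMIs in Irx5KO and 45 in WT in tanycyte-like cells, and on 30 UMIs in Irx5KO and 45 in WT in VLMC-like cells. Scaling by the median of ratios subtracts a shift of −0.12 from log2 ratios in VLMC-like cells. The VLMC-like interval then includes no difference. With 1 library per genotype the difference between these classes was not tested.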

How the results depend on the processing

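No paired analysis was possible because each genotype has 1 library and the comparison comes from no test. Followed here were the members at least 1.5-fold apart in some class, with 100 UMIs there and an interval that excludes 1. Each was taken in every compared class where it had 100 UMIs. Of their log2 ratios over all alternatives, 921 stayed within the counting interval of the reported value, 24 left it and 1 reversed. Cells of 1500 to under 3000 UMIs alone gave 20 of those that left it, while 24 stayed within it in that band. The reversed one was Atp5g1 in neuron-like cells, at −0.22 when summed with its near-identical gene, as the construction of that sum shows. That sum also put complex V at −0.13 and left 0 members at least 1.5-fold higher in neuron-like cells (all genes 12.4%) and 2 in VLMC-like cells (3.33%, all genes 12.3%). Part of the 921 could not move. Adding near-identical genes leaves members without such genes as they were. VLMC-like, oligodendrocyte-like and OPC-like cells also kept their cell numbers with the merged table's cells, at resolution 2 and in clustering without members.

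Scaling by trimmed means gave log2 ratios in neuron-like cells of −0.21 for the summed members, −0.26 for complex I, −0.22 for complex IV and −0.12 for complex V, and sums of −0.27 in oligodendrocyte-like and −0.34 in OPC-like cells (median of members −0.34). It left 16 members (22.5%, all genes 14.8%) lower in oligodendrocyte-like cells, and 19 (26.8%, all genes 22.3%) lower and 0 (all genes 3.89%) higher in OPC-like cells. Scaling by the median of ratios gave sums of −0.22 in neuron-like, −0.18 in tanycyte-like, −0.29 in oligodendrocyte-like and −0.37 in OPC-like cells, 0.021 in VLMC-like cells, where the direction reversed, and 0.14 in microglia-like cells. Neuron-like complexes I, III, IV and V were then at −0.28, −0.25, −0.23 and −0.14, and the members' medians −0.18 in neuron-like, −0.37 in OPC-like and 0.24 in microglia-like cells. Members lower then numbered 3 in VLMC-like (5.26%, all genes 10.5%), 17 in oligodendrocyte-like (23.9%, all genes 16%) and 22 in OPC-like cells (31%, all genes 24.2%), and members higher 1 in oligodendrocyte-like (1.41%, all genes 6.4%) and 0 in OPC-like cells (all genes 3.04%).

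Cells with at least 800 genes gave tanycyte-like cells a sum of −0.078 and a median of −0.042, and VLMC-like cells 5 members lower (13.5%, all genes 16.7%). At most 10% mitochondrial UMIs left 1 member higher in OPC-like cells (1.41%, all genes 7.58%). A mean over cells gave complex II in neuron-like cells 0.0057 and microglia-like cells 2 members lower (16.7%, all genes 14.6%), and equal weight for neuron clusters gave a sum of −0.19 and complex V −0.12. Members with at least 10 UMIs gave 14 lower and 7 higher in VLMC-like cells (16.7% and 8.33%, all genes 21.7% and 22.6%), 14 lower and 8 higher in microglia-like cells (20% and 11.4%, all genes 22% and 25%), 7 higher in oligodendrocyte-like cells (7.95%, all genes 22.7%) and 2 higher in neuron-like cells (2.15%, all genes 18.5%). Neuron-like cells of 1500 to under 3000 UMIs, an alternative chosen after seeing the data, gave a sum of −0.31, a median of −0.26, 20 members lower (25.3%, all genes 9.64%), and complexes I to V at −0.38, −0.026 (reversed), −0.39, −0.30 and −0.25. For these changes the cause was not tested. Microglia-like cells with at least 800 genes were under 50 cells in a library and were not run.

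Fewer members could be measured in microglia-like (12 of 97) and VLMC-like cells (57 of 97) than in the other compared classes.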
